A study of Arabidopsis with 12 samples.

Results

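Transcripts of 10 Arabidopsis genes for chaperones and foldases of the endoplasmic reticulum (ER) lumen were followed in wild-type (WT) and mac3a3b seedlings. The genes were taken by locus from a table of 37825 genes: the lumenal HSP70 proteins BIP1 (AT5G28540), BIP2 (AT5G42020) and BIP3 (AT1G09080), their J-domain partners ERDJ3A (AT3G08970) and ERDJ3B (AT3G62600), calnexin CNX1 (AT5G61790), the calreticulins CRT1A (AT1G56340), CRT1B (AT1G09210) and CRT3 (AT1G08450), and the protein disulfide isomerase PDIL1-1 (AT1G21750). The protein descriptions in the deposited table give each of them by name and protein family, without its compartment or partners. CNX1 is as a rule anchored in the ER membrane with its chaperone domain in the lumen. The choice was made by function and not by measured values, with earlier results of these data known.

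The study holds 4 groups of 3 libraries: WT control, mac3a3b control, WT at 3 days and mac3a3b at 3 days. All plants were raised on diluted MS medium with 1.2% sucrose, and the protocol gives 37 °C for the heat treatment without its length or the age of the seedlings. The libraries labelled DM are taken to be mac3a3b, the double mutant of MAC3A and MAC3B, whose products are ubiquitin ligase-like proteins of a complex associated with the spliceosome. Neither the mutant alleles nor the number of seedlings per library is named. Where the titles say control, the design text has 0 hours from the end of heat, so it is not settled whether control plants had been heated. No unheated group of the later age is among the labels, so the response, as the step between those sampling points is called here, cannot be told apart from a change with age or hour of sampling.

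ER chaperones receive proteins as they enter the secretory pathway. BIP proteins bind unfolded stretches under the direction of J-domain proteins, calnexin and calreticulins bind glycoproteins that still carry a terminal glucose, and disulfide isomerases form and rearrange disulfide bonds. When unfolded proteins accumulate, the unfolded protein response, run in plants by the kinase and RNase IRE1 with the factor bZIP60 and by the membrane-bound factors bZIP28 and bZIP17, raises the transcription of many of these genes, and heat is a known trigger of it in plants.

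Values are TPM, a share of the library corrected for gene length, so levels can be set side by side between genes. The library sums of TPM lay between 999986.2 and 999995.5, and the depth in reads is unknown. The targeted genes stood at 33.43 to 35.78 TPM (MAC3A) and 69.72 to 76.24 TPM (MAC3B) in the 3 WT control libraries and at 9.14 to 10.32 and 9.89 to 10.65 TPM in mutant control. At 3 days they stood at 59.50 to 61.50 and 127.97 to 136.73 TPM in WT and at 5.6 to 6.81 and 8.77 to 9.81 TPM in the mutant, so the labels and the targeted transcripts matched in every library. Log2 fold changes below are of TPM + 1 with ± 1 standard error (SE) of the limma fit over all genes, and a gene is said to have risen or fallen only at a Benjamini-Hochberg adjusted p under 0.05. Of the 10 genes, 9 had a TPM of at least 1 in all 12 libraries. BIP3 passed the filter on low values through the 6 mutant libraries alone, so its presence among the genes tested depended on the genotype that was high.

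The 10 genes together reached their highest level in the mutant 3 days after heat. Their summed TPM was 837 ± 10.1 (SD, n = 3) at control and 1625 ± 62.4 at 3 days in WT, and 749 ± 24.1 at control and 7863 ± 772 at 3 days in the mutant. In mutant 3 days this sum was 0.786 ± 0.0772% of all TPM, against 0.0837 ± 0.00101% in WT control. The composition of the sum differed too: BIP1 and BIP2 made up 25.9 ± 0.451% of it in WT control and 48.6 ± 0.75% in mutant 3 days, while CRT1A went from 20.4 ± 0.624% to 6.97 ± 0.227% and CRT3 from 6.01 ± 0.196% to 0.45 ± 0.0699%. Of the 10 genes 9 were highest in mutant 3 days, and for all 9 its lowest library lay above every library of the next group. CRT3 was the exception, highest in WT 3 days. Mutant 3 day libraries lay all above WT 3 days in 24.4% of all genes tested and all above mutant control in 39.7%. The share of genes in which they lay above every other group was not computed. In bulk RNA of whole seedlings, fewer cells of a type and less RNA per cell cannot be told apart.

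**Figure D1:**
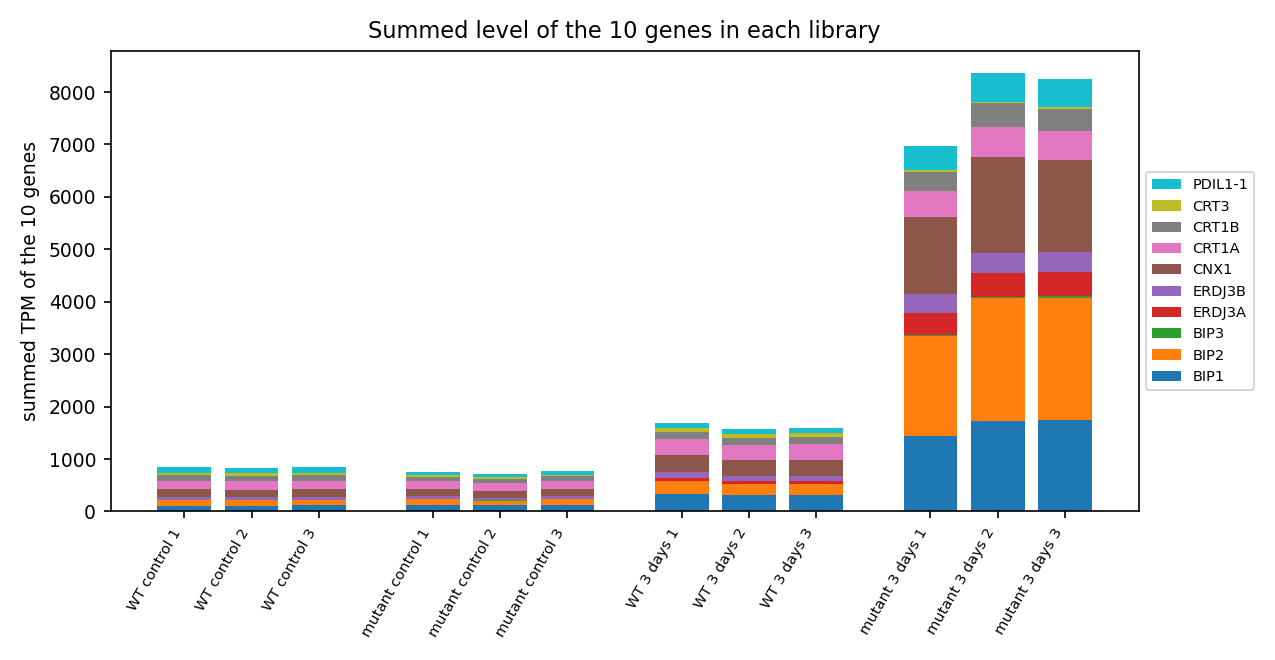
Summed TPM of the 10 ER chaperone and foldase genes (vertical axis, linear, from 0) in each of the 12 libraries (horizontal axis), with 1 colour per gene. The mutant 3 day libraries stand at 6974, 8369.6 and 8245 TPM, and no other library exceeds 1696 TPM.

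BIP1 and BIP2, the constitutive lumenal HSP70 proteins, were close to each other in level at control in both genotypes and far above that at 3 days in the mutant. BIP2 stood at 102.38, 101.33 and 103.48 TPM at control and 239.45, 207.20 and 209.71 at 3 days in WT, and 105.88, 91.10 and 106.82 at control and 1906.66, 2344.07 and 2333.38 at 3 days in the mutant. The controls of the 2 genotypes overlapped, the WT 3 day libraries were all above them, and the mutant 3 day libraries were higher again by a log2 difference of 3.32 ± 0.089 (adjusted p = 3.08e-11). By rank, which does not depend on how libraries are scaled, BIP2 was between the 1429th and 1687th most abundant gene in mutant control and between the 14th and 21st in mutant 3 days. BIP1 stood at 113.61, 110.57 and 117.91 TPM at control and 340.34, 316.96 and 315.72 at 3 days in WT, and 130.49, 117.62 and 131.75 at control and 1437.58, 1719.66 and 1743.36 at 3 days in the mutant. For BIP1, too, WT 3 days lay above both control groups and mutant 3 days above WT 3 days. Its control groups overlapped only between 117.62 and 117.91 TPM, with the higher mean in the mutant, whereas the WT controls of BIP2 lay wholly within the range of its mutant controls.

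BIP2 rose by 1.08 ± 0.089 in WT (adjusted p = 3.19e-07) and by 4.42 ± 0.089 in the mutant (adjusted p = 1.03e-12), a difference of responses of 3.34 ± 0.13 (adjusted p = 1.06e-09). BIP1 rose by 1.5 ± 0.074 in WT and 3.68 ± 0.074 in the mutant, a difference of 2.18 ± 0.10 (adjusted p = 6.11e-09). Within a library the BIP2 to BIP1 ratio was 0.898 ± 0.0196 at control and 0.674 ± 0.0263 at 3 days in WT, and 0.799 ± 0.0211 at control and 1.34 ± 0.0188 at 3 days in the mutant, so BIP2 exceeded BIP1 in the last group only, in 3 of 3 libraries. The BIP1 and BIP2 proteins are known to be nearly identical, and RSEM can divide reads between such copies, so the split between them is uncertain. Summed as 1 gene they rose by 1.32 ± 0.082 in WT and by 4.06 ± 0.082 in the mutant, with a difference of 2.74 ± 0.12 (adjusted p = 2.27e-09).

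BIP3, the lumenal HSP70 that is nearly silent without ER stress and inducible by it, was low in WT at both sampling points and present in the mutant. It was listed at 0.38, 0.33 and 0.14 TPM at control and 0.80, 0.80 and 0.51 at 3 days in WT, and 2.15, 1.86 and 2.74 at control and 16.18, 27.41 and 24.92 at 3 days in the mutant. No groups overlapped, and mutant control stood above WT 3 days. Mutant control exceeded WT control 7.94-fold in mean TPM (1.34 ± 0.18 on the log2 scale, adjusted p = 1.03e-04), and mutant 3 days exceeded WT 3 days 32.5-fold (3.78 ± 0.18, adjusted p = 2.42e-09). BIP3 was tested only through the mutant libraries, where it was high, and its place in the counts below carries that limit. With no filter on low values limma gave the same log2 differences, at adjusted p = 3.1e-04 for control and 2.17e-08 for 3 days. In WT the response of 0.41 ± 0.18 was not called (adjusted p = 0.0546), although it was without WT 3 days replicate 3 (adjusted p = 0.0435) or without mutant 3 days replicate 1 (0.0126) or 2 (0.0429). With a pseudocount of 0.1, which compresses low genes less, it was 1.11 (adjusted p = 0.0055) and the control difference was 2.66, while quantile normalization turned the WT response to -0.25. BIP3 stayed a small part of the BIP transcripts throughout, at 0.277 ± 0.125% of BIP2 at control and 0.321 ± 0.0723% at 3 days in WT, and 2.21 ± 0.305% at control and 1.03 ± 0.164% at 3 days in the mutant.

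**Figure D2:**
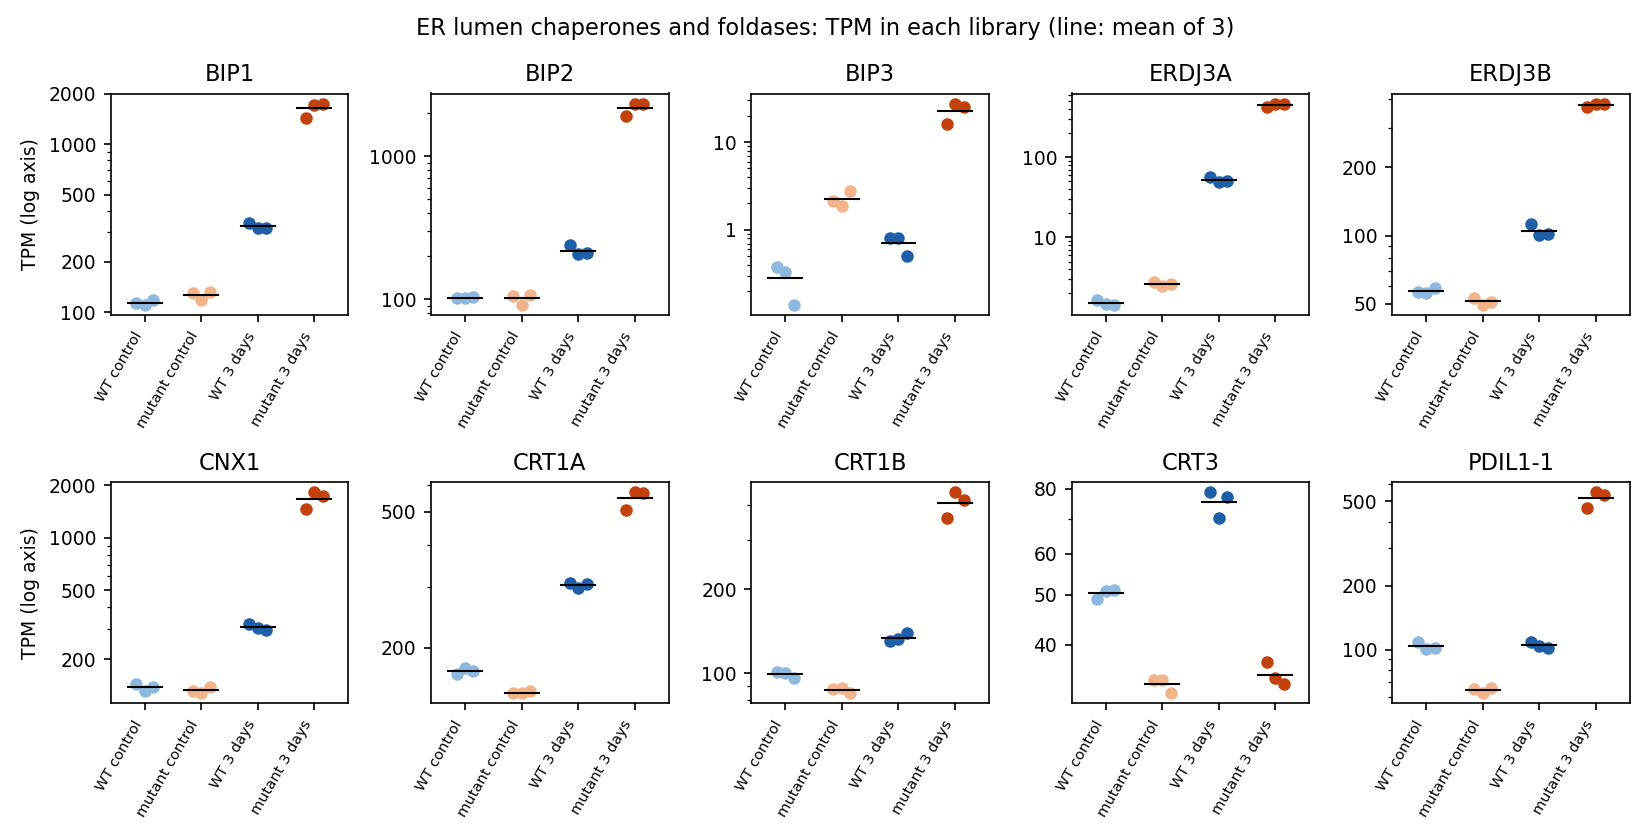
TPM (vertical log axis, a separate scale in each panel) of each of the 10 genes in the 12 libraries, with points for libraries and a line for the mean of 3. In 9 panels the mutant 3 day libraries are highest, and in the CRT3 panel they lie between 33.62 and 37.03 TPM, below both WT groups.

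The J-domain proteins ERDJ3A and ERDJ3B stimulate the ATPase of BIP, and ERDJ3A (also TMS1) is known for its part in the thermotolerance of pollen tubes. ERDJ3A stood at 1.68, 1.49 and 1.44 TPM at control and 57.32, 49.51 and 50.68 at 3 days in WT, and 2.78, 2.45 and 2.62 at control and 423.43, 463.84 and 467.52 at 3 days in the mutant. The 4 groups were separate. Its mutant response of 6.97 ± 0.069 (adjusted p = 1.55e-14), a 173-fold change in mean TPM, was the largest among the 10 genes and ranked 61st of 22462 genes tested, and its WT response was the largest of the 10 as well, at 34.2-fold. At control it was already 1.70-fold higher in the mutant (0.51 ± 0.069, adjusted p = 1.01e-04).

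ERDJ3B, which works in a complex with BIP and the protein SDF2, had an even basal level and a smaller range. It stood at 56.63, 56.16 and 58.63 TPM at control and 112.69, 100.85 and 102.20 at 3 days in WT, and 53.15, 49.51 and 51.24 at control and 369.35, 382.69 and 380.43 at 3 days in the mutant. It rose by 0.87 ± 0.047 in WT and 2.86 ± 0.047 in the mutant (difference 1.99 ± 0.067, adjusted p = 5.08e-10). The proportion of the J-domain partners differed between groups: ERDJ3A transcripts were 2.69 ± 0.257% of those of ERDJ3B at control and 49.8 ± 0.914% at 3 days in WT, and 5.1 ± 0.142% at control and 119.6 ± 4.36% at 3 days in the mutant. Against BIP1 and BIP2 together, ERDJ3A was at 0.71 ± 0.064% in WT control and at 9.66 ± 0.221% and 11.8 ± 0.705% in WT and mutant 3 days.

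Of the lectin chaperones, CNX1 followed the BIP genes. It stood at 145.03, 130.70 and 137.89 TPM at control and 319.70, 301.03 and 295.07 at 3 days in WT, and 130.71, 127.41 and 139.57 at control and 1458.04, 1829.71 and 1747.61 at 3 days in the mutant. The controls overlapped, and the mutant 3 day libraries averaged 5.50-fold above those of WT 3 days (2.45 ± 0.079, adjusted p = 1.00e-10). The ratio of BIP1 to CNX1 within a library stayed between 0.783 and 1.07 over all 12 libraries, although both genes spanned more than 10-fold in level.

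The calreticulins, the soluble counterparts of calnexin, did not move as a block. CRT1A, the most abundant of the 10 genes in WT control, stood at 167.65, 174.01 and 170.77 TPM at control and 309.59, 298.05 and 306.38 at 3 days in WT, and 147.00, 147.26 and 149.18 at control and 504.12, 570.46 and 565.34 at 3 days in the mutant. All 4 groups were separate, with a mutant response of 1.88 ± 0.048, the smallest among the 9 genes that rose there. CRT1B ranged in WT from 96.21 to 100.90 TPM at control and 129.83 to 139.39 at 3 days, and in the mutant from 84.49 to 88.10 and 358.87 to 445.29, a mutant response of 2.21 ± 0.067 (adjusted p = 2.44e-11) beside 0.43 ± 0.067 in WT. The ratio of CRT1B to CRT1A was 0.58 ± 0.0198 at control and 0.439 ± 0.0182 at 3 days in WT, and 0.587 ± 0.0183 at control and 0.742 ± 0.035 at 3 days in the mutant. The 2 genes are close relatives, so this split carries the uncertainty named for BIP1 and BIP2.

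CRT3, a plant-specific calreticulin known for its part in the maturation of the immune receptor EFR and in holding back misfolded brassinosteroid receptors, departed from the other 9. It stood at 48.95, 50.92 and 50.99 TPM at control and 78.85, 70.26 and 77.03 at 3 days in WT, and 34.31, 34.25 and 32.26 at control and 37.03, 34.49 and 33.62 at 3 days in the mutant. The mutant libraries of both sampling points overlapped and lay below all 6 WT libraries. In WT it rose by 0.57 ± 0.054 (adjusted p = 9.89e-07), in the mutant it changed by 0.06 ± 0.054 (adjusted p = 0.322), and the difference of responses was -0.51 ± 0.076 (adjusted p = 6.60e-05). That difference was -0.02 with median-of-ratios scaling (adjusted p = 0.778), where the median of all genes was -0.145 in place of -0.55. The genotype differences of CRT3 kept their sign and call with that scaling, at -0.57 and -0.66 for control and at -1.08 and -0.69 for 3 days, without and with it. Ratios within a library are free of it, but they also carry the mutant responses of CNX1 (3.65) and CRT1A (1.88). They therefore cannot show a response of CRT3 itself. CNX1 exceeded CRT3 by a ratio of 2.74 ± 0.201 at control and 4.06 ± 0.227 at 3 days in WT, and 3.95 ± 0.327 at control and 48.1 ± 7.61 at 3 days in the mutant. CRT1A exceeded CRT3 by 3.40 ± 0.0418 at control and 4.05 ± 0.17 at 3 days in WT, and by 4.4 ± 0.192 at control and 15.7 ± 1.77 at 3 days in the mutant.

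PDIL1-1, a disulfide isomerase of the ER that is also known from vacuoles, was not called in the WT response and rose in the mutant. It stood at 108.34, 100.40 and 101.90 TPM at control and 107.91, 103.51 and 102.06 at 3 days in WT, and 64.99, 62.10 and 65.83 at control and 463.09, 551.93 and 533.78 at 3 days in the mutant. The WT groups overlapped, the mutant was lowest of all at control and highest of all at 3 days, and the mutant response was 8.03-fold. The difference of responses was 2.97 ± 0.087 (adjusted p = 2.48e-10), below BIP2 alone among the 10. Its ratio to CRT1A was 0.607 ± 0.0357 at control and 0.343 ± 0.00857 at 3 days in WT, and 0.435 ± 0.0115 at control and 0.943 ± 0.0245 at 3 days in the mutant.

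At control the genotypes differed in 7 of the 10 genes. The inducible pair BIP3 and ERDJ3A was higher in the mutant, and PDIL1-1 (-0.68 ± 0.062), CRT3 (-0.57 ± 0.054), CRT1A (-0.21 ± 0.048), CRT1B (-0.19 ± 0.067) and ERDJ3B (-0.15 ± 0.047) were lower. BIP1 (0.15 ± 0.074, adjusted p = 0.12), BIP2 (-0.02 ± 0.089, adjusted p = 0.898) and CNX1 (-0.06 ± 0.079, adjusted p = 0.598) were not called. That is 2 higher and 5 lower of 10, where 30.3% and 19.2% of all genes tested were higher and lower. The median of the 10 was -0.10 and that of all genes 0.06. The CRT1B call was lost without any 1 of the 6 control libraries, its adjusted p of 0.0364 going to 0.0509 to 0.105, and that of ERDJ3B (0.019) was 0.0681 without WT control replicate 3 and 0.0737 without mutant control replicate 2. Without either of these 2 libraries 3 of 10 were lower.

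At 3 days the mutant exceeded WT in 9 of 10 genes and was below it in CRT3 (-1.08 ± 0.054, adjusted p = 3.26e-09), with no overlap of libraries in any of the 10. Of all genes tested, 24.1% were called higher and 58.7% lower in this comparison, 24.4% had mutant libraries all above those of WT and 58.5% all below. The 9 differences ran from 0.84 ± 0.048 for CRT1A (adjusted p = 1.07e-08) to 3.78 for BIP3, and 8 were at least 2-fold, where 8.1% of all genes were higher by that much. The median of the 10 was 2.30, beside -0.51 for all genes. Replicate 1 of mutant 3 days was the lowest of its group in all 9 of these genes and the highest in CRT3. Without it BIP2 differed by 3.42 and BIP3 by 4.00.

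**Figure D3:**
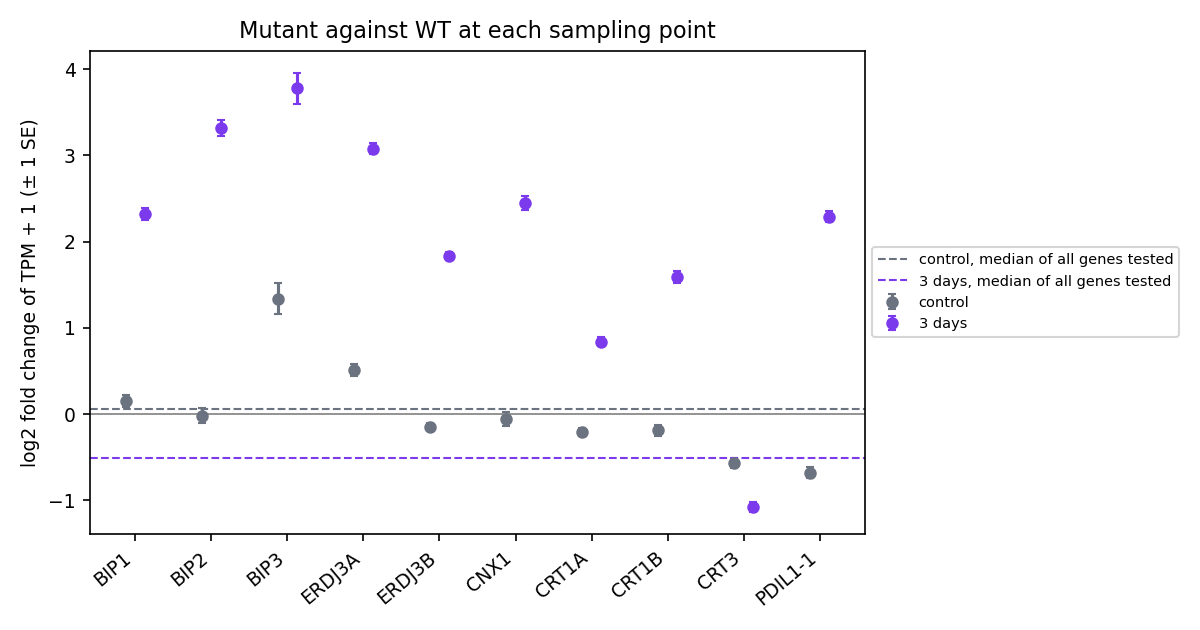
Log2 fold change of TPM + 1, mutant against WT (vertical axis, ± 1 SE), for each of the 10 genes at control (grey) and at 3 days (violet). Dashed lines give the medians of all genes tested, 0.06 and -0.51, and CRT3 is the gene below 0 at 3 days.

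From control to 3 days WT raised 8 of the 10 genes, and 0 fell by limma (0 also at an unadjusted p under 0.05), against 54.9% and 26.4% of all genes tested, with a median of 0.85 beside 0.39. ERDJ3A (4.4 ± 0.069) and BIP1 (1.5 ± 0.074) led, and BIP3 and PDIL1-1 (0.01 ± 0.062, adjusted p = 0.849) were not called. The WT values depend on scaling. With median-of-ratios scaling the median of all genes was 0 and 6 of 10 rose: ERDJ3A by 3.99, BIP1 by 1.03, CNX1 by 0.67, BIP2 by 0.62, ERDJ3B by 0.40 and CRT1A by 0.36. CRT1B was then at -0.04 and CRT3 at 0.11, neither called, and PDIL1-1 fell by 0.45 (adjusted p = 8.42e-05). With quantile normalization PDIL1-1 fell by 0.31 and CRT1B, at 0.13, was not called.

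In the mutant 9 of 10 rose, each at least 2-fold, and 0 fell by limma (0 also at an unadjusted p under 0.05), against 39.4% of all genes called higher, 46.5% called lower and 22.1% higher by at least 2-fold. Mutant libraries at 3 days lay all above those at control in these 9 genes, as in 39.7% of all genes, and in 46.2% of all genes they lay all below. The median was 2.92 beside -0.13 for all genes. These 9 calls held under both other scalings, and CRT3 turned from 0.06 to -0.10 with quantile normalization without being called. Following ERDJ3A (6.97), the order was BIP2 (4.42), BIP1 (3.68), CNX1 (3.65 ± 0.079), PDIL1-1 (2.98 ± 0.062), ERDJ3B (2.86), BIP3 (2.85 ± 0.18), CRT1B (2.21) and CRT1A (1.88). Neighbours such as BIP1 and CNX1, or ERDJ3B and BIP3, differed by less than their standard errors. The place of BIP3 also depended on the pseudocount: with 0.1 it rose by 3.27, above PDIL1-1 (3.00) and ERDJ3B (2.88).

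The response was larger in the mutant for 9 of 10 genes, and the differences ran from 1.05 ± 0.067 for CRT1A to 3.34 for BIP2. All 10 were called, 9 higher and 1 lower. Of all genes tested, 76.9% were called in this contrast, 20.6% higher and 56.3% lower, and 8.12% were higher by at least 2-fold, as all 9 were. The median of the 10 was 2.31 and that of all genes -0.55. The contrast uses the same libraries as both responses, so it is not independent of them.

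**Figure D4:**
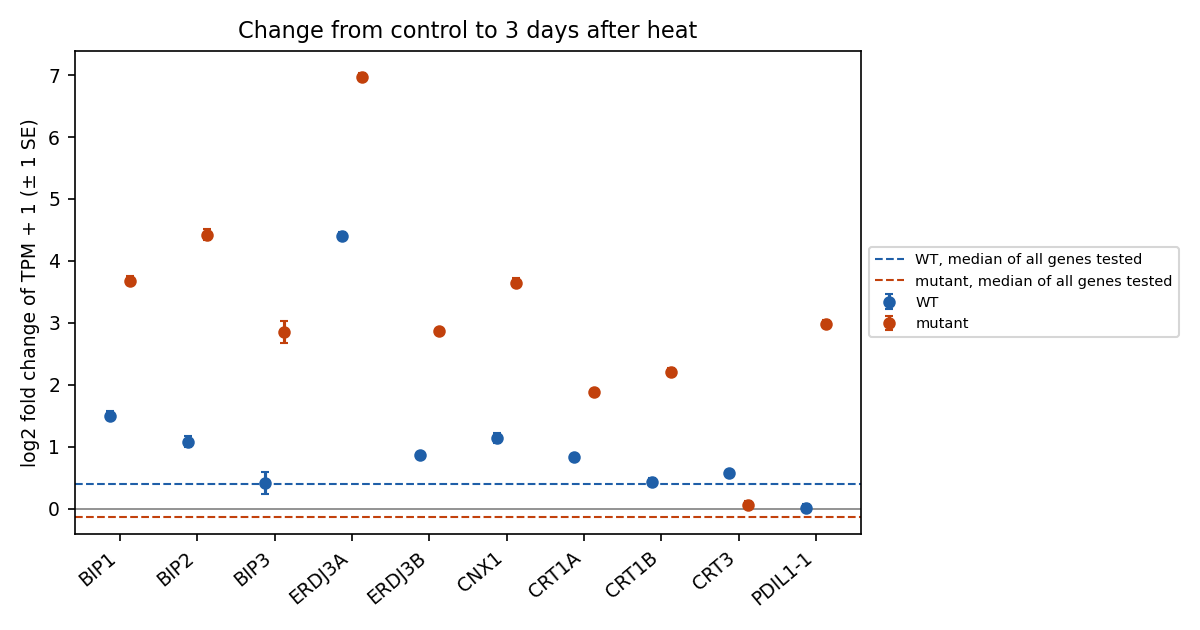
Log2 fold change of TPM + 1 from control to 3 days (vertical axis, ± 1 SE) for the 10 genes in WT (blue) and in the mutant (red). Dashed lines give the medians of all genes tested, 0.39 and -0.13, and the mutant point lies above the WT point for every gene but CRT3.

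Across the 12 libraries the 9 genes other than CRT3 had pairwise Pearson r of log2(TPM + 1) from 0.751 (BIP3 and CRT1A) to 0.998 (CNX1 and ERDJ3B), while r of CRT3 with them ran from -0.636 (BIP3) to 0.0213 (CRT1A). All 9 were highest in mutant 3 days, but their WT responses ran from 0.01 for PDIL1-1 to 4.4 for ERDJ3A. The libraries fall into 4 groups, so these r values describe the group pattern and carry no test. Among genes with a symbol and a mean of at least 5 TPM over the 12 libraries, those outside the 10 most like BIP2 in this measure were RGLG1 (r = 0.9988), ML2, ELF5A-3, BSK6 and PDIL1-2 (r = 0.9979). RGLG1 averaged 11.2 TPM at control and 26.0 at 3 days in WT, and 12.4 at control and 249 at 3 days in the mutant. Within the same limit, those most like CRT1B were the ER oxidoreductin ERO1 (r = 0.9975), SNF7.2, the ER HSP90 protein SHD (r = 0.9951), PDIL1-2 and MBF1B. Those most like BIP3 were ARF16 (r = 0.9951), CI51, UGD3, RCAR1 and GAPC1 (r = 0.9906), and none of these 5 is an ER folding gene. ARF16 averaged 11.5 TPM at control and 12.6 at 3 days in WT, and 14.5 at control and 21.7 at 3 days in the mutant, a much narrower range than that of BIP3.

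The other genes of ER folding, 21 in a list of further disulfide isomerases, J-domain proteins, oxidoreductins, prolyl isomerases and other chaperones and partners, such as calnexin CNX2 and the ER HSP90, were all tested. At control 3 were higher and 6 lower in the mutant, led by PDIL1-6 (0.20 ± 0.049) and PDIL2-2 (-0.58 ± 0.062). At 3 days 15 were higher and 4 lower, from PDIL2-3 (2.61 ± 0.058, adjusted p = 1.09e-11) to PDIL1-5 (-1.29 ± 0.11, adjusted p = 2.88e-07). In WT 20 rose and 1 fell at 3 days, led by the rise of PDIL2-2 (1.85 ± 0.062), with a fall of ERDJ2B (-0.46 ± 0.047), and in the mutant 18 rose and 3 fell, from PDIL2-2 (4.43 ± 0.062) to PDIL1-5 (-0.94 ± 0.11). For the difference of responses 14 were called higher and 4 lower (median 0.77). The shares of all genes tested called higher and lower were 30.3% and 19.2% at control and 24.1% and 58.7% at 3 days. In the WT response they were 54.9% and 26.4%, in the mutant response 39.4% and 46.5%, and for the difference 20.6% and 56.3%. PDIL2-3, a disulfide isomerase, stood at 45.39, 50.78 and 45.99 TPM in WT control and at 963.23, 984.52 and 1047.51 in mutant 3 days. The ER HSP90 protein (HSP90.7, also SHD) and SDF2, named after their values were seen, differed in response by 2.39 ± 0.081 and 2.12 ± 0.077, and the glucosyltransferase UGGT, which returns glycoproteins to calnexin and calreticulin, by -0.16 ± 0.084 (adjusted p = 0.103). Members of the isomerase family were found at both ends of the list.

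Of 12 sensors and factors of the unfolded protein response, 8 were higher and 0 lower in the mutant at control, where limma at an unadjusted p under 0.05 gave 1 lower, the protease S1P (-0.12 ± 0.054, adjusted p = 0.0833). NAC103, a factor downstream of bZIP60, was the largest, from 0.90, 1.27 and 1.00 TPM in WT control to 4.92, 5.24 and 5.39 in mutant control (1.59 ± 0.076, adjusted p = 6.10e-08). At 3 days 8 were higher and 1 lower, BI1 (2.51 ± 0.051), a suppressor of cell death in the ER membrane, and NAC089 (-0.64 ± 0.13). NAC089 was not called with median-of-ratios scaling (-0.28) and turned to 0.19 with quantile normalization. In WT 11 rose, led by NAC103 (3.79 ± 0.076), and BAG7 fell (-0.20 ± 0.069, adjusted p = 0.016), a call lost without WT 3 days replicate 3 (adjusted p = 0.0704). In the mutant 11 rose, led by BI1 (4.06 ± 0.051), and NAC089 fell (-0.43 ± 0.13), which turned to 0.07 with quantile normalization. For the difference of responses 7 were called higher and 3 lower (median 0.35), from BI1 (2.27 ± 0.072) to NAC103 (-1.39 ± 0.11). Over all genes tested, 30.3% were called higher and 19.2% lower at control, and 24.1% and 58.7% at 3 days. These shares were 54.9% and 26.4% in the WT response, 39.4% and 46.5% in the mutant response and 20.6% and 56.3% for the difference. The factors that act on the chaperone genes, named after their values were seen, had unequal differences of responses: bZIP28 by 1.97 ± 0.064, bZIP17 by 0.85 ± 0.087 and bZIP60 by 0.64 ± 0.083, whose activity also depends on splicing that gene-level TPM does not show.

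HSP70 proteins of other compartments are the closest relatives of the BIP proteins. Of 10 such genes, 8 were higher and 0 lower in the mutant at control, led by the mitochondrial MTHSC70-1 (1.18 ± 0.051), and at an unadjusted p under 0.05 limma gave 1 lower, HSP70B (-0.33 ± 0.14, adjusted p = 0.0696). At 3 days 8 were higher and 2 lower, from the cytosolic HSC70-3 (1.62 ± 0.047) to the chloroplast CPHSC70-2 (-0.35 ± 0.067), which turned to 0.05 with median-of-ratios scaling. The heat-inducible cytosolic HSP70-4 led the responses of both genotypes, with 6.60 ± 0.068 in WT and 7.16 ± 0.068 in the mutant, and 9 of 10 rose and 0 fell in each by limma (0 also at an unadjusted p under 0.05). The difference of responses had a median of 0.44, with 6 higher and 3 lower, from ERD2 (1.46 ± 0.16), which was listed at 0 in all 6 control libraries, to CPHSC70-2 (-1.05 ± 0.095). ERD2 reached at most 0.55 TPM in WT 3 days and at least 2.49 TPM in mutant 3 days. It passed the filter on low values through the mutant 3 day libraries alone, so being tested depended on that group. Shares of all genes called higher and lower were 30.3% and 19.2% at control and 24.1% and 58.7% at 3 days. They were 54.9% and 26.4% for the WT response, 39.4% and 46.5% for the mutant response and 20.6% and 56.3% for the difference. Within a library BIP1 and BIP2 together came to 0.221 ± 0.0153 of the 6 cytosolic HSP70 genes at control and 0.176 ± 0.00663 at 3 days in WT, and 0.19 ± 0.0144 at control and 0.586 ± 0.0307 at 3 days in the mutant. This ratio was lower in WT 3 days than in WT control and highest in mutant 3 days, with no overlap between these 3 groups.

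**Figure D5:**
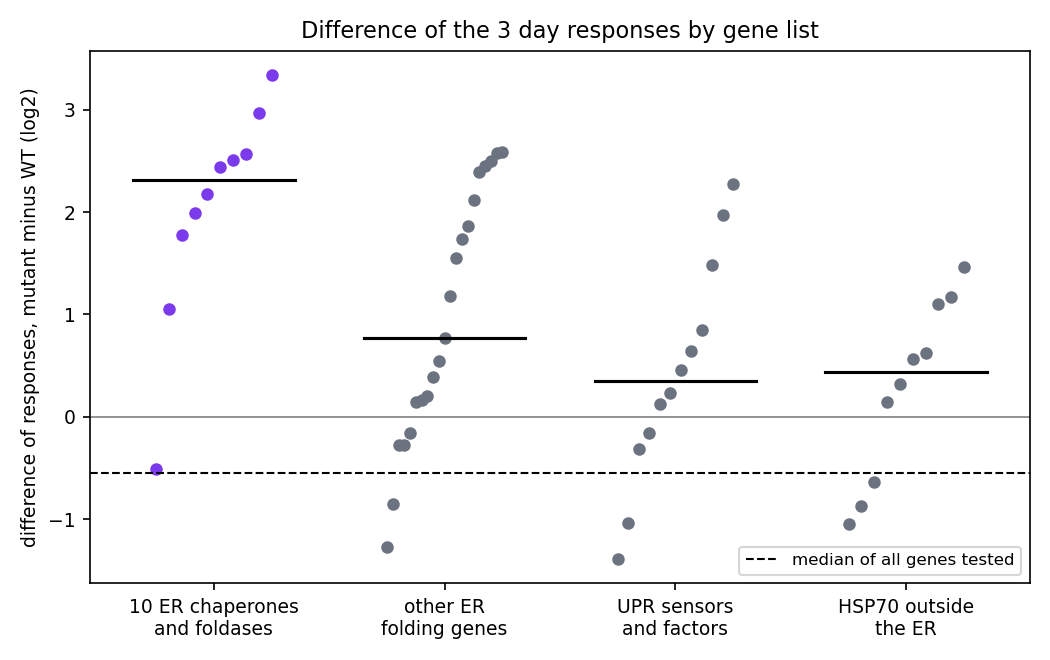
Difference of the 3 day responses, mutant minus WT (log2, vertical axis), with 1 point per gene for the 10 ER chaperones and foldases and for 3 other lists, ordered within each list. Black lines give list medians of 2.31, 0.77, 0.35 and 0.44, and the dashed line the median of all genes tested, -0.55.

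The makeup of the tissue RNA also moved with the groups. The summed level of 6 leaf markers was 36939.9 to 38093 TPM at control and 4667 to 5809 at 3 days in WT, and 38782 to 40411 at control and 3046 to 4145 at 3 days in the mutant. That of 8 root markers was 135 to 151 TPM at control and 55.1 to 68.0 at 3 days in WT, and 161 to 251 at control and 31.4 to 35 at 3 days in the mutant, and EXPA7 was at 0 in all 3 libraries of mutant 3 days. The leaf markers were all called lower in both responses but differed unevenly between the genotypes. At control limma called RBCS1A and RCA higher in the mutant, LHCB1.1, PSAF and PSBO1 lower, and LHCB2.1 neither. At 3 days 4 of the 6 were called lower in the mutant, LHCB1.1 the most (-4.76 ± 0.14). RBCS1A (0.03 ± 0.13) and PSAF (-0.14 ± 0.079) were not called. The root markers did not all follow their sum. At control IRT1 averaged 27.8 ± 4.5 TPM in WT and 114 ± 39.2 TPM in the mutant, where limma called IRT1 and SCR higher and PHO1 and NRT2.1 lower. In the WT response 6 of the 8 were called lower and SCR and SHR higher, and in the mutant 7 were called lower and 0 higher (0 also at an unadjusted p under 0.05). The highest of the 8 WT responses was 0.23, below the median of 0.39 for all genes. Vascular and guard cell markers (5) summed to 141 to 152 TPM at control and 109 to 122 at 3 days in WT, and to 109 to 124 at control and 40.1 to 47.7 at 3 days in the mutant, a sum in which the vascular SUC2 and XCP1 weigh most at control. Of these 5, limma called 3 higher (APL, XCP1 and FAMA) and 1 lower (SUC2) in the WT response. In the mutant the vascular SUC2, APL and XCP1 were called lower, and the guard cell markers were called higher, FAMA from 9.59 ± 0.722 to 13.1 ± 0.226 TPM and MYB60 from 12.6 ± 0.915 to 15.4 ± 2.14 TPM. These marker calls were made on TPM as deposited. Among all genes tested, 54.9% were called higher and 26.4% lower in the WT response, and 39.4% and 46.5% in the mutant response. Between the genotypes 30.3% were called higher and 19.2% lower at control, and 24.1% and 58.7% at 3 days. Seed markers (5) summed to at most 1.02 TPM in the controls. At 3 days they summed to 7.14 to 17.9 TPM in WT and 6.14 to 7.24 TPM in the mutant, which overlapped. Of the 5 only 2 were tested, and they differed in opposite directions between the genotypes at 3 days. SESA1 was called lower in the mutant, at 10.9 ± 5.76 TPM in WT and 1.63 ± 1.02 TPM in the mutant. CRA1 was called higher, at 0.357 ± 0.272 TPM in WT and 3.97 ± 0.849 TPM in the mutant. SESA1 was at 0 in every WT control library and CRC in all 6 control libraries. The part of these shifts in the chaperone values was not tested.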

How the data were processed

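Polyadenylated RNA of seedlings was sequenced in 12 libraries, grouped by their titles. Per the labels' protocols, the libraries were made with an Illumina TruSeq kit after oligo dT enrichment. RSEM and the TAIR10 build were used, per the submitters' processing notes. Of the aligner, strand setting, filters and versions nothing is stated. The authors deposited a table of TPM, which corrects for gene length and has nearly the same sum in every library, for 37825 genes. TPM keeps no read depth, so no counting interval can be given.

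The fit used 22462 genes, those reaching 1 TPM in 3 or more libraries. A group-means model of log2(TPM + 1) over the 12 libraries was fitted in limma 3.58.1 (R 4.3.3), with the prior variance following mean expression. Benjamini-Hochberg adjustment covered all of these genes, and the threshold was an adjusted p of 0.05. The steps were tested on simulated data. An exact two-sided test of 3 against 3 libraries cannot go below a p of 0.1. Whether replicates were grown separately is not stated, so the p-values reflect spread among these libraries only, which may be technical. Libraries of the same group had a Pearson r between 0.982 and 0.989.

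The 10 members and the lists beside them were chosen with earlier results of these data known. Named genes were the 10 members, MAC3A and MAC3B and, for each other list and comparison, the gene called with the strongest rise and the one with the strongest fall, or the highest expressed gene where none was called. Likeness to BIP2, BIP3 and CRT1B was ranked by Pearson r among genes with a symbol and a mean of at least 5 TPM, and the highest 5 were named. Other genes named were chosen after their values were seen. Symbols come from the deposited table and a RefSeq gene table (TAIR10.1), in which all 10 members matched. No genome or sequence was used. Alternatives were a pseudocount of 0.1, no filter on low values, median-of-ratios scaling, quantile normalization, the replicate number as a block, a fit of only the groups compared, each library left out in turn and, added after the data were seen, BIP1 and BIP2 summed.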

Additional observations from a re-analysis of the deposited data

Results flagged for a closer look

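Differences of the 3 day response between genotypes are listed here because the test of the difference itself passed an adjusted p of 0.05 in limma, as 76.9% of all genes tested did. Among the 10 genes the differences, mutant minus WT on the log2 scale, were 2.18 for BIP1, 3.34 for BIP2, 2.44 for BIP3, 2.57 for ERDJ3A, 1.99 for ERDJ3B, 2.51 for CNX1, 1.05 for CRT1A, 1.78 for CRT1B and 2.97 for PDIL1-1. CRT3 differed by -0.51, with the dependence on scaling given above. Beside them stood PDIL2-3 (2.59), PDIL1-5 (-1.27), BI1 (2.27), NAC103 (-1.39), ERD2 (1.46), CPHSC70-2 (-1.05) and the targeted genes MAC3A (-1.38) and MAC3B (-0.99). BIP3 and ERD2 carry the dependence on the filter given above. NAC103 went from 1.06 to 27.4 TPM in WT and from 5.18 to 31.6 TPM in the mutant, so its smaller mutant response began from a higher control level.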

How the results depend on the processing

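The TPM gives no read depth, and no interval from counts can be set beside these values. Over the 12 refits without 1 library each, named values kept their direction and side of the threshold 1010 times. They reversed 3 times, lost a call 9 times and gained a call 7 times. The numbers of the 10 genes higher and lower in the mutant were 2 to 3 and 3 to 5 at control without 1 library each, and did not move at 3 days (9 and 1). Genes called lower in WT at 3 days were 1 of 10 in place of 0 with median-of-ratios scaling and with quantile normalization, and 0 in place of 1 for the difference of responses with median-of-ratios scaling. Over all genes, quantile normalization gave 9050 higher and 8468 lower in mutant against WT at 3 days (5403 and 13185 as deposited), and 8319 and 7800 for the difference of responses (4620 and 12657). Median-of-ratios scaling gave 7380 higher for the difference of responses, 7692 higher and 10482 lower in mutant against WT at 3 days, 8822 higher and 9014 lower for WT (12339 and 5932), and 5234 higher and 5619 lower in mutant against WT at control (6803 and 4313). Quantile normalization gave 8965 and 8874 for WT.

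Reversed values were these. At control BIP2 (-0.06 to 0.05 without 1 library each) was 0.05 without mutant control replicate 2 and 0.07 when summed with BIP1. In WT PDIL1-1 was -0.45 with median-of-ratios scaling, -0.31 with quantile normalization and -0.01 without WT control replicate 2 or WT 3 days replicate 1, CRT1B was -0.04 with median-of-ratios scaling and BIP3 -0.25 with quantile normalization. In the mutant CRT3 was -0.10, NAC089 0.07 and MAC3B 0.23 with quantile normalization. At 3 days CPHSC70-2 was 0.05 with median-of-ratios scaling and NAC089 0.19 with quantile normalization. The causes were not tested. BIP1 at control was called higher in a fit of the controls alone (adjusted p = 0.0484) and without mutant 3 days replicate 1 (0.0337). CRT1B at control was not called with no filter on low values (0.053), nor PDIL1-6 with median-of-ratios scaling (0.0865). BIP3 gave no value in a fit of WT libraries alone, where it did not pass the filter.

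The replicate numbers did not pair the samples: same-numbered libraries of different groups had r of -0.0961 to 0.0772 in their deviations from group means, and 5 of 18 correlated best with their own number. With the replicate block 86 of 86 named values kept their call, and BIP2 differed in response by 3.34.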
